A study of Homo sapiens with 2 samples.

Results

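The genes studied here encode the DNA replication machinery, and they were followed in A549 cells carrying the plakophilin gene PKP2 with an SFB tag and in A549 cells carrying the vector. The members are 45 named human genes, taken by symbol and matched by Entrez ID, and all 45 were found among the 16399 genes with a count. The rule that lists them goes by function and uses no measured value. A549 is an established lung adenocarcinoma line. The PKP2 group and the vector group held 1 library each, both from cells at passage 5 grown in DMEM with serum, and the study's stated purpose was to find what lies downstream of PKP2. No source used here tells whether each culture was a clone or a pool, or which promoter drives the insert. With 1 library per group no difference has a replicate check, so no test was made and no p-value is given. What follows therefore sets 1 library against another and cannot speak for the conditions.

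DNA replication begins at origins, where the origin recognition complex, CDC6 and CDT1 load the ring-shaped MCM helicase in G1. At the G1/S transition CDC45 and the GINS complex join the MCM ring to form the active helicase. Polymerase alpha with primase then lays primers, polymerases epsilon and delta copy the strands, and replication protein A covers the exposed single strands. Many of these genes are transcribed in late G1 by E2F factors that bind a short GC-rich motif in promoters, so their transcripts are often read as a sign of proliferation.

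The estimated counts summed to 16808842 in the PKP2 library and 16996976 in the vector library. PKP2 itself stood at 268 CPM (a gene's count scaled to a library total of 1000000) in the PKP2 library, against 27.3 CPM in the vector library, a ratio of 9.82 with a 95% counting interval of 8.92 to 10.8, in the direction its label gives. Reads from the insert and from the native gene cannot be told apart. Of the epithelial genes that mark the line, KRT8, KRT18, KRT19, KRT7 and CDH1 were above 50 CPM in both libraries, whereas the lung genes NKX2-1, SFTPB and NAPSA were under 1 CPM and EPCAM was at 1.37 CPM with PKP2 and 1.47 CPM with vector. Markers of other cells were low. The endothelial genes with a count summed to 0.892 CPM with PKP2 and 0.235 CPM with vector, and the fibroblast genes to 11.8 and 9.59 CPM, of which COL1A1 made 10.4 and 8.12 CPM. The leukocyte list summed to 86.0 CPM with PKP2 and 82.1 CPM with vector, nearly all of it CD68, a lysosomal protein gene that is not specific to leukocytes. What part other cells have in any difference was not tested.

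The promoters of these genes carried the E2F motif more often than promoters at large, as a description of sequence that uses no value of these libraries. Promoter windows of 300 bases, 250 before the start site and 50 after it, were read from the RefSeq promoter table of build GRCh38.p14, which held 49 windows for 38 of the 45 members. The motif was searched as TTTCCCGC, TTTCGCGC, TTTGCCGC and TTTGGCGC on both strands, and matches on opposite strands may overlap. It was present in 19 of the 38 members with a window (50%), against 3.99% of 27305 genes in the table and 6.69% of the 10441 expressed genes in it. In 17 of the 20 member windows with a match, the match nearest the start site began within 60 bases of it. A match is a description of the letters and not evidence of binding. The windows below show 40 bases around the match nearest the start site in 14 members, chosen to cover each step from licensing to nucleotide supply. They run 5′ to 3′ along the gene, with each match to either strand in capitals, so that GCGGGAAA is the reverse complement of TTTCCCGC.
CDC6 (chr17:40287870-40287909, plus strand): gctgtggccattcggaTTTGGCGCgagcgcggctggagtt
CDT1 (chr16:88803738-88803777, plus strand): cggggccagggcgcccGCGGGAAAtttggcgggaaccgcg
MCM2 (chr3:127598397-127598436, plus strand): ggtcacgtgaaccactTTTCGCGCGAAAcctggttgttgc
MCM3 (chr6:52284723-52284762, minus strand): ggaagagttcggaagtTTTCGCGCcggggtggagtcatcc
MCM6 (chr2:135876506-135876545, minus strand): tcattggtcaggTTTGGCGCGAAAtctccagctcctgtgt
MCM7 (chr7:100101383-100101422, minus strand): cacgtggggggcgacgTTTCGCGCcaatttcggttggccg
GINS2 (chr16:85688962-85689001, minus strand): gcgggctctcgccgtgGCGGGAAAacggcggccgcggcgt
POLA2 (chr11:65261893-65261932, plus strand): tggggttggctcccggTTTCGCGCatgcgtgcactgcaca
POLE (chr12:132687337-132687376, minus strand): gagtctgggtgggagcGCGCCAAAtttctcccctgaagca
PCNA (chr20:5126658-5126697, minus strand): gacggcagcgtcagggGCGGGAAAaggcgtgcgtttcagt
RFC3 (chr13:33818078-33818117, plus strand): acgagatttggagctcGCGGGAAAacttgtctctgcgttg
TYMS (chr18:657598-657637, plus strand): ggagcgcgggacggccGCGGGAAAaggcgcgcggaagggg
E2F1 (chr20:33686382-33686421, minus strand): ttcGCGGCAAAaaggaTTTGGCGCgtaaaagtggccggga
UHRF1 (chr19:4909471-4909510, plus strand): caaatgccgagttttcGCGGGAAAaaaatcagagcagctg

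No such match was present in the windows of ORC6 and RFC1, the members with the largest differences between the libraries, or of RRM2, the nucleotide supply gene with the highest CPM. A window of each is shown with the CCAAT box, the core of the NF-Y site, in capitals where it lies on either strand. That box was found in 24 of the 38 members (63.2%), against 43.2% of the expressed genes, and the GC box GGGCGG in 29 (76.3%), against 77.2%. The window of RRM2 carried 3 such boxes in the same orientation, 123, 93 and 66 bases before its start site. ORC6 carried 1 on each strand, 104 and 68 bases before the start, and RFC1 carried 1, 188 bases before it.
ORC6 (chr16:46689409-46689708, plus strand): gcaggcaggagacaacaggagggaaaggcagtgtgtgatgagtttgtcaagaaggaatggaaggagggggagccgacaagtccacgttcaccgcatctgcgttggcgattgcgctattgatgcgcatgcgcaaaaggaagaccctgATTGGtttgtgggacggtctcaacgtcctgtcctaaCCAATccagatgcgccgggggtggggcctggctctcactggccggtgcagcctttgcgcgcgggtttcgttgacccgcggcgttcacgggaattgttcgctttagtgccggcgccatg
RFC1 (chr4:39366313-39366612, minus strand): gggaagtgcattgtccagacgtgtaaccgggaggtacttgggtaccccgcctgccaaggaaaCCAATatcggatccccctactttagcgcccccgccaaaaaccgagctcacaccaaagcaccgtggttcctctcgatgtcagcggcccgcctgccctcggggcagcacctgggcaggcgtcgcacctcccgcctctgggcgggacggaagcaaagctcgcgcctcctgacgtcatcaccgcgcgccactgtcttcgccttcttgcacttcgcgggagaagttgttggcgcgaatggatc
RRM2 (chr2:10122489-10122788, plus strand): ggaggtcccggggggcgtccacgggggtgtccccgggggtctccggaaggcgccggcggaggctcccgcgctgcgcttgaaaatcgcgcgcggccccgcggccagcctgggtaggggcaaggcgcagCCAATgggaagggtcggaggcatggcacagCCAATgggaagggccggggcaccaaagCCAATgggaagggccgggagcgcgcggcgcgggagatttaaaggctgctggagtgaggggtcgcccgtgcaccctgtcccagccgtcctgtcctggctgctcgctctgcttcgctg

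As a whole the replication genes lay at almost the same level in both libraries. Their counts summed to 4543 CPM in the PKP2 library and 4598 CPM in the vector library, a ratio of 0.988 with a 95% counting interval of 0.978 to 0.998. The difference per gene is taken on the log2(CPM + 1) scale as PKP2 minus vector, and its median over the 45 members was 0.00, as it was over all 12820 expressed genes. Of the members, 23 lay above 0 and 22 below, and 27 were within 0.1 of it. With a smooth trend on transcript length and GC content subtracted, 15 lay above 0 and 30 below, and 16 of the 45 changed sign. Of the 12671 expressed genes with a trend value, 6198 then lay above 0 and 6473 below. A gene counted as apart when this difference reached 1.2-fold. By that measure 1 member was higher (2.22%), where 8.70% of all expressed genes were, and 1 was lower (2.22%), where 11.0% of all were. All expressed genes include many with fewer counts than any member. Of the 8442 expressed genes within the members' range of mean CPM, 395 were higher and 852 lower. At 1.5-fold no member was apart in either direction, against a background of 0.733% higher and 0.788% lower. The SD of the difference was 0.13 across the members and 0.19 across the 8442 expressed genes, members included, within the same range of mean CPM. In RNA from bulk cultures, fewer cells in S phase and less of a transcript per cell cannot be told apart.

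**Figure D1:**
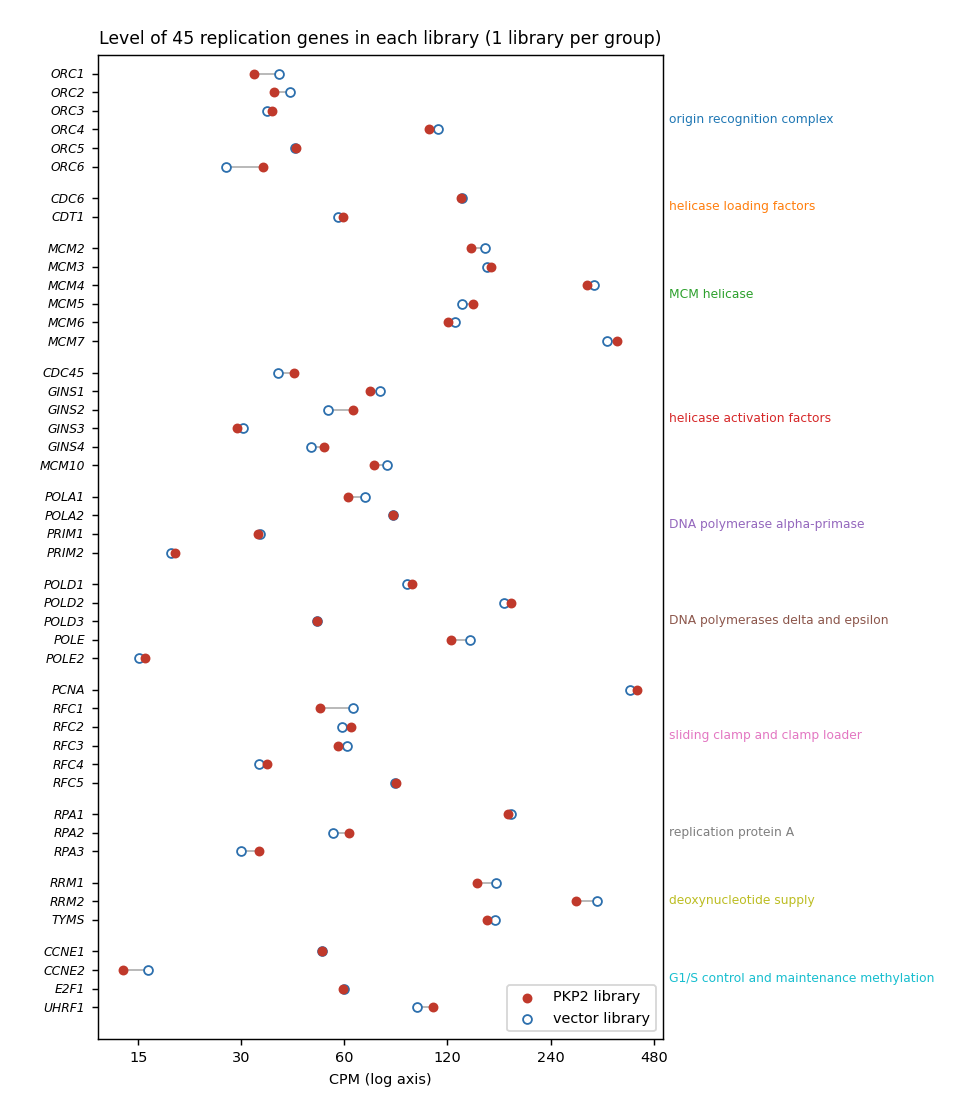
CPM of the 45 replication genes (log axis) in the PKP2 library (filled) and the vector library (open), grouped by role, with 1 library per group and hence no error bars. The points of most genes touch or overlap, PCNA lies highest at 430.1 and 409 CPM, and CCNE2 (13.6 CPM with PKP2, 16.0 CPM with vector) and POLE2 (15.7 CPM with PKP2, 15.1 CPM with vector) lie lowest.

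Some of these small differences were nonetheless larger than the counting error. The exact 95% interval of the ratio, which covers counting error only, lay above 1 for 8 members (17.8%), where 16.3% of all expressed genes had such an interval, and below 1 for 11 members (24.4%), where 19.8% of all did. The remaining 26 included 1. Both shares are close to the background. The intervals were narrow because the members are well covered, and the upper bound was 1.07 times the lower bound for the most abundant member and 1.43 times for the least abundant. Relative to length the machinery ranked high: per kilobase of the longest annotated transcript, the median member stood at percentile 78.6 of expressed genes in the PKP2 library and 78.4 in the vector library. PCNA reached percentile 98.9 with PKP2 and 98.8 with vector, while CCNE2 lay lowest at 33.7 and 36.8.

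**Figure D2:**
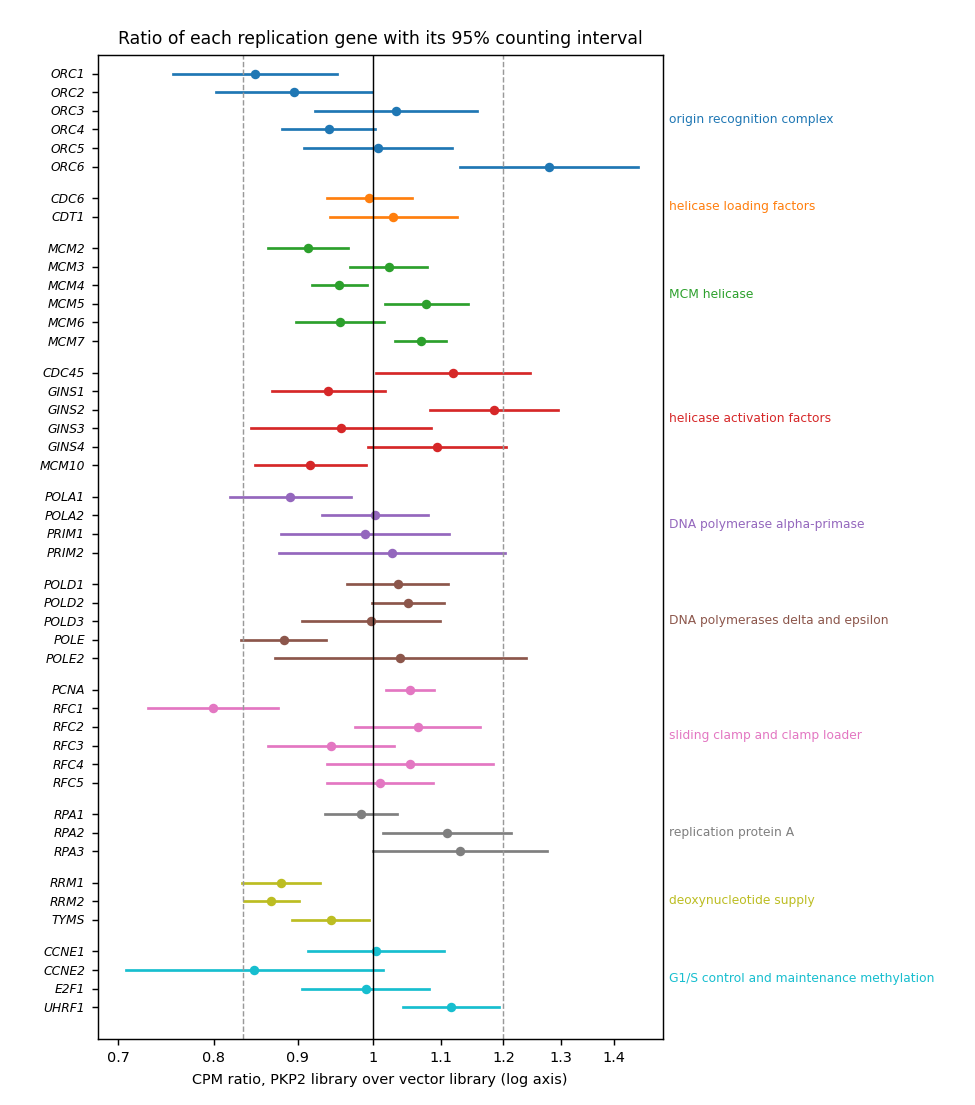
Ratio of CPM in the PKP2 library over the vector library (log axis) for each replication gene, with exact 95% counting intervals and dashed lines at a plain ratio of 1.2 in each direction. ORC6 at 1.28 and RFC1 at 0.799 are the points beyond the dashed lines, and all 3 nucleotide supply genes lie left of 1.

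The origin recognition complex, which marks origins on chromatin, held the widest spread of any group, 0.58 between its highest and lowest difference. ORC6, its smallest subunit, stood at 34.7 CPM (583 counts) in the PKP2 library, against 27.1 CPM (461 counts) in the vector library. It was the member farthest above 0, with a difference of 0.34 and a ratio of 1.28 (1.13 to 1.45). ORC1, the subunit whose protein level varies through the cell cycle, was at 32.7 CPM with PKP2 and 38.6 CPM with vector, a ratio of 0.848 (0.756 to 0.951). The other subunits differed less. ORC2 was at 37.4 CPM with PKP2 and 41.7 CPM with vector, with an interval of 0.803 to 0.999, and ORC4 (fractional count) at 106 and 112 CPM, with a ratio of 0.940 (0.881 to 1.00). ORC3 was at 36.9 and 35.7 CPM and ORC5 at 43.4 and 43.1 CPM, both with an interval that included 1. The 6 genes thus fell on both sides, and their summed ratio was 0.973 (0.936 to 1.01). Just outside the 1.2-fold measure, which is 0.26 on the log2 scale, came GINS2 at 0.24 and ORC1 at -0.23, and RFC1 at -0.32 had reached it.

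The licensing factors that bring the MCM ring to origins did not differ detectably at this depth. CDC6, an ATPase of the loading reaction, was at 131 CPM with PKP2 and 132 CPM with vector, a ratio of 0.995 (0.937 to 1.06). CDT1, the MCM chaperone that is destroyed once S phase starts, was at 59.3 CPM with PKP2 and 57.6 CPM with vector, a ratio of 1.03 (0.941 to 1.12). Geminin (GMNN), the inhibitor of CDT1, was looked up after its value was seen and had a ratio of 0.995 (0.894 to 1.11). Per kilobase CDT1 was at 0.567 (0.514 to 0.626) of geminin with PKP2 and 0.549 (0.497 to 0.606) with vector, and these intervals overlap.

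The 6 genes of the MCM ring, the replicative helicase, lay within a narrow band and divided evenly in direction. MCM7 (fractional count), the most abundant, was at 375 CPM with PKP2 and 351 CPM with vector, a ratio of 1.07 (1.03 to 1.11). MCM5 was at 142 CPM with PKP2 and 132 CPM with vector, a ratio of 1.08 (1.02 to 1.14). On the other side stood MCM2, the subunit that also binds histones, at 141 CPM with PKP2 and 154 CPM with vector, a ratio of 0.913 (0.863 to 0.965). MCM4 was at 308 CPM with PKP2 and 322 CPM with vector, a ratio of 0.954 (0.918 to 0.991). The intervals of MCM3 (1.02; 0.968 to 1.08) and MCM6 (0.955; 0.898 to 1.02) included 1. Per kilobase of the longest annotated transcript, the highest, MCM7, exceeded the lowest, MCM5, by 3.93-fold with PKP2 and 3.96-fold with vector. That rank depends on the length used. MCM5 was given the longest transcript of the ring, 4599 nucleotides, and its CPM was above that of MCM6 (120 CPM with PKP2, 126 CPM with vector). As a sum the ring was at 1246 CPM with PKP2 and 1243 CPM with vector, a ratio of 1.00 (0.984 to 1.02).

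Factors that turn the loaded ring into a working helicase were mixed. GINS2, a GINS subunit, had the clearest difference, at 63.5 CPM with PKP2 and 53.7 CPM with vector, a ratio of 1.18 (1.08 to 1.29). CDC45, which bridges the ring and GINS, was at 42.8 CPM with PKP2 and 38.3 CPM with vector, a ratio of 1.12 with the lower bound at 1.00. GINS4 was at 52.3 CPM with PKP2 and 47.8 CPM with vector, and its interval of 0.993 to 1.2 included 1. MCM10, a firing factor outside the ring, was at 73.2 CPM with PKP2 and 79.9 CPM with vector, a ratio of 0.916 (0.847 to 0.990). GINS1 was at 71.5 and 76.1 CPM and GINS3 at 29.1 and 30.4 CPM, so the 4 genes of the GINS complex did not share a direction. The sum over these 6 genes had a ratio of 1.02 (0.982 to 1.06).

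Among the polymerases, the catalytic subunits with long transcripts stood lowest. POLA1, the catalytic subunit of polymerase alpha, was at 61.5 CPM with PKP2 and 69.0 CPM with vector, a ratio of 0.891 (0.818 to 0.969). POLE, the leading-strand polymerase, was at 123 CPM with PKP2 and 139 CPM with vector, a ratio of 0.883 (0.832 to 0.937). Their partners among the members had intervals that included 1, but those of PRIM1 and PRIM2 also held the ratio of POLA1, and that of POLE2 the ratio of POLE. Of the epsilon subunits that are not members, picked after their values were seen, POLE3 had a ratio of 1.07 (1.01 to 1.13) and POLE4 of 1.06 (0.913 to 1.23). POLA2 (fractional count) had a ratio of 1.00 (0.931 to 1.08), the primase subunits PRIM1 and PRIM2 of 0.988 (0.879 to 1.11) and 1.03 (0.877 to 1.2), and POLE2 of 1.04 (0.871 to 1.24). Polymerase delta, which extends the lagging strand, had ratios of 1.03 (0.964 to 1.11) for its catalytic subunit POLD1, 1.05 (0.998 to 1.1) for POLD2 and 0.997 (0.905 to 1.1) for POLD3. The summed ratio was 0.965 (0.920 to 1.01) for alpha-primase and 0.992 (0.961 to 1.02) for delta and epsilon together.

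In the clamp and its loader, PCNA had an interval above 1, RFC1 had one below 1, and the small loader subunits included 1. PCNA, the clamp that tethers polymerases to DNA, was at 430.1 CPM with PKP2 and 409 CPM with vector, a ratio of 1.05 (1.02 to 1.09). RFC1, the large subunit of the clamp loader, was at 50.9 CPM (855 counts) in the PKP2 library and 63.7 CPM (1082 counts) in the vector library. It was the member farthest below 0, at -0.32, with a ratio of 0.799 (0.730 to 0.875). Of the small subunits, RFC2 had a ratio of 1.06 (0.976 to 1.16), RFC3 of 0.943 (0.863 to 1.03), RFC4 of 1.05 (0.938 to 1.18) and RFC5 (fractional count) of 1.01 (0.938 to 1.09), all with 1 inside the interval. In replication protein A, which covers single-stranded DNA, the large subunit RPA1 was at 180.4 CPM with PKP2 and 184 CPM with vector, a ratio of 0.983 (0.934 to 1.03). RPA2 was at 61.7 CPM with PKP2 and 55.7 CPM with vector, a ratio of 1.11 (1.01 to 1.21), and RPA3, the small subunit, at 33.7 and 29.9 CPM, a ratio of 1.13 (0.999 to 1.27). The summed ratio was 1.02 (0.991 to 1.04) for the clamp with its loader and 1.02 (0.984 to 1.07) for replication protein A.

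Nucleotide supply was the group whose members all lay on one side with intervals clear of 1. RRM2, the regulated small subunit of ribonucleotide reductase, was at 284 CPM (4775 counts) in the PKP2 library and 328 CPM (5567 counts) in the vector library, a ratio of 0.867 (0.834 to 0.902). RRM1, the large subunit, was at 147 CPM with PKP2 and 167 CPM with vector, a ratio of 0.879 (0.833 to 0.928). TYMS (fractional count), thymidylate synthase, was at 156 CPM with PKP2 and 166 CPM with vector, a ratio of 0.942 (0.893 to 0.994). Their sum was at 587 CPM with PKP2 and 660.0 CPM with vector, a ratio of 0.889 (0.865 to 0.914), and it was the 1 sum of the 10 groups whose interval did not include 1. Per kilobase RRM2 exceeded RRM1 by 1.67-fold (1.59 to 1.75) with PKP2 and 1.69-fold (1.62 to 1.77) with vector, so the reductase subunits kept their proportion within counting error. No gene of this group reached the 1.2-fold measure. Annotated exons of RRM2 overlap another gene on the same strand, and those of RRM1 and TYMS another on the opposite strand, so a share of RRM2 reads could belong elsewhere whatever the strand setting, and of RRM1 and TYMS reads if strand was not used.

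**Figure D3:**
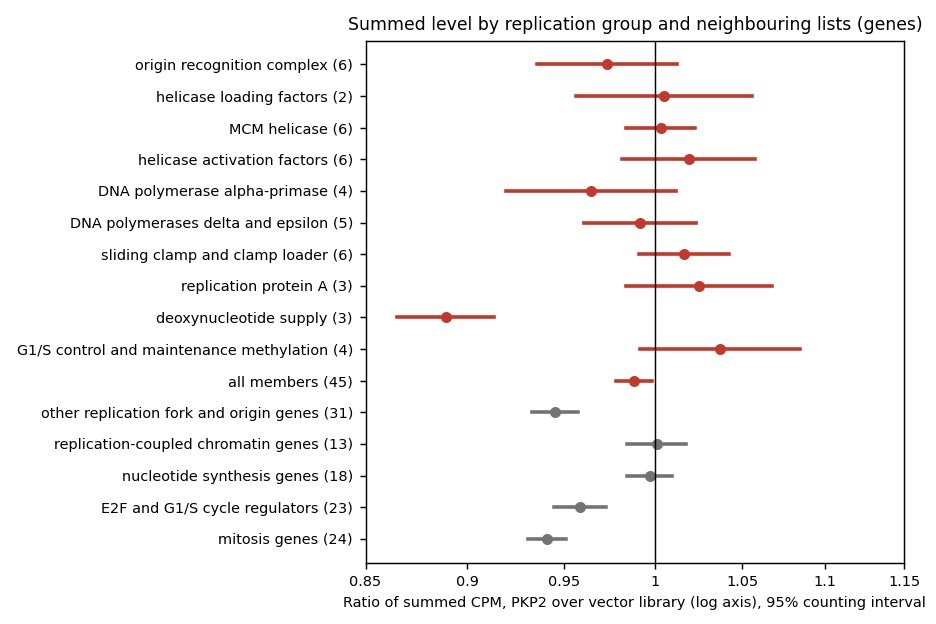
Ratio of summed CPM, PKP2 over vector library (log axis), with exact 95% counting intervals, for the 10 replication groups and all members (red) and for 5 neighbouring lists (grey), with the number of expressed genes in brackets. Nucleotide supply lies at 0.889, and the intervals of the other 9 groups include 1.

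The regulators at the G1/S transition did not share a direction. E2F1, a transcription factor that drives many of the genes above, was at 59.3 CPM with PKP2 and 60.0 CPM with vector, a ratio of 0.989 (0.906 to 1.08). CCNE1, a cyclin E that activates CDK2, was at 51.7 CPM with PKP2 and 51.5 CPM with vector, a ratio of 1.00 (0.913 to 1.1). Its paralog CCNE2 (fractional count) was at 13.6 CPM with PKP2 and 16.0 CPM with vector, and its interval of 0.708 to 1.01 included 1. UHRF1, which brings DNMT1 to newly copied DNA, was at 109 CPM with PKP2 and 97.8 CPM with vector, a ratio of 1.11 (1.04 to 1.19). Members with an E2F match in the promoter had a median difference of -0.01 (range -0.18 to 0.24), and those of the 38 without it 0.01 (range -0.32 to 0.34). Of the 19 members with a match 9 lay above 0, and of the 19 without it 10 did.

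The differences among the members ran with transcript length, as they did across the transcriptome. Across the 45 members, which share both libraries, Spearman's rho of the difference was -0.47 with the length of the longest GENCODE transcript and 0.37 with its GC content, against -0.46 and 0.37 across 12671 expressed genes. Of the 15 shortest members, up to 2402 nucleotides, 12 lay above 0 with a median of 0.07, and of the 15 longest, from 3736 nucleotides, 4 did, with a median of -0.07. In 6 of the 9 groups with at least 3 genes the longest transcript was also the lowest. These were MCM10, POLA1, POLE, RFC1, RPA1 and RRM2, while ORC4, MCM5 and UHRF1 were the longest of their groups and not the lowest. Why length moves with the difference was not tested.

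**Figure D4:**
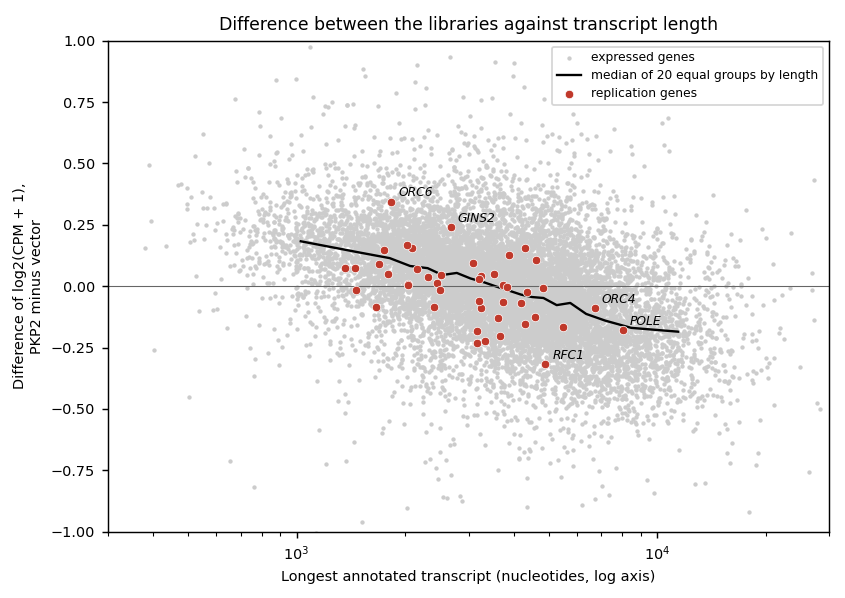
Difference of log2(CPM + 1), PKP2 minus vector, against the longest annotated transcript (log axis) for the replication genes (red) and all expressed genes with a length (grey), with the median of 20 equal groups by length as a black line. The red points descend with length as the line does, ORC6 at 0.34 and RFC1 at -0.32 being the farthest from 0. The axes leave out 23 of the 12671 genes.

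With a smooth trend on length and GC content subtracted, the members drew closer together. Their SD was then 0.11, their median -0.03, and 32 of 45 lay within 0.1 of 0. RFC1 moved to -0.22 and no longer reached the 1.2-fold measure, while ORC6 at 0.264 was still just past the cut of 0.263. Thus 1 member was higher and 0 were lower, against 7.00% and 6.09% of the 12671 genes with a trend value. ORC1 at -0.260 fell just short of the cut, although its plain ratio with the trend subtracted, 0.831, was beyond 1.2-fold. The calls for ORC6 and ORC1 thus rest on the edge of the measure. POLA1 moved to -0.06 and POLE to -0.09, and RPA3 to 0.11. All 6 genes of the clamp and its loader then lay below 0, PCNA at -0.03 among them. Of these genes only RFC1 had an interval clear of 1 after the subtraction. The nucleotide supply genes lay close together at -0.16 for RRM1, -0.18 for RRM2 and -0.19 for TYMS, against -0.18, -0.20 and -0.09 before the subtraction, and all 3 intervals were below 1 after the same shift. ORC1 at -0.26 and MCM2 at -0.18 on the lower side, and GINS2 at 0.20 and UHRF1 at 0.14 on the higher side, also kept an interval clear of 1. So did ORC6, MCM5, POLE and RFC1. E2F1 lay at -0.13 and GINS4 at 0.14, each with an interval that cleared 1 after the subtraction and not before.

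Other genes of replication were taken from lists drawn up by function. Of 31 further fork and origin genes, 0 were 1.2-fold higher and 4 were lower (12.9%, against 11.0% of all expressed genes). An interval lay above 1 for 3 of them (9.68%, against 16.3% of all) and below 1 for 11 (35.5%, against 19.8% of all). Whether an interval clears 1 depends on depth. Of the 8442 expressed genes in the members' range of mean CPM, 1603 had an interval above 1 and 2191 below. The 31 fork and origin genes had a median of -0.04 and a summed ratio of 0.945 (0.933 to 0.958). With the trend subtracted 1 of these 31 was higher and 2 were lower. That sum, 2657 CPM with PKP2 and 2811 CPM with vector, leans on TOP2A, the most abundant of these genes, picked after its value was seen. TOP2A was at 698 CPM with PKP2 and 783 CPM with vector. MTBP, a partner of the firing factor treslin, was at 9.40 CPM with PKP2 and 12.6 CPM with vector, a ratio of 0.747 (0.604 to 0.921). TOPBP1 (fractional count), a scaffold of origin firing, had a ratio of 0.818 (0.759 to 0.881), and ATAD2, a chromatin ATPase, of 0.821 (0.773 to 0.871). With the trend subtracted these lay at -0.31, -0.16 and -0.15. Genes of the kinase that phosphorylates the MCM ring were picked after their values were seen. CDC7 at 0.822 (0.705 to 0.956) and its subunit DBF4 at 0.871 (0.782 to 0.969) also had intervals below 1. The alternative subunit DBF4B (fractional count), at 1.06 (0.964 to 1.16), had an interval that included 1. The 13 replication-coupled chromatin genes had a median of 0.01, with NASP, a histone chaperone, at 1.13 (1.07 to 1.19), CHAF1A, the large subunit of chromatin assembly factor, at 1.09 (1.00 to 1.18), and MMS22L (fractional count), a fork repair factor, at 0.846 (0.750 to 0.953). Of these 13 genes none reached 1.2-fold.

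Beyond RRM1, RRM2 and TYMS, genes of nucleotide synthesis lay on both sides. The 18 further genes of purine, pyrimidine and deoxynucleotide synthesis had a median of 0.00, with 9 above 0 and 9 below, none at 1.2-fold, and a summed ratio of 0.997 (0.984 to 1.01). Those farthest from 0 were RRM2B, the p53-inducible reductase subunit, at 0.837 (0.767 to 0.914), CAD, which starts pyrimidine synthesis, at 0.848 (0.806 to 0.892), and the purine enzyme GART at 0.882 (0.831 to 0.936). They lay at -0.12, -0.17 and -0.17 with the trend subtracted. Of the 18 genes, 7 then lay above 0 and 11 below, with a median of -0.04.

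The E2F family and its regulators held 15 genes below 0 and 8 above it. Of 23 expressed genes in that list, 0 were higher and 4 were lower by 1.2-fold (17.4%, against 11.0% of all expressed genes). With the trend subtracted 1 was higher and 2 were lower. The median was -0.11, or -0.08 with the trend subtracted, and the summed ratio was 0.959 (0.945 to 0.973). Counting intervals were above 1 for 3 of these 23 genes (13.0%, against 16.3% of all expressed genes) and below 1 for 11 (47.8%, against 19.8%). E2F7, an atypical E2F that represses transcription, was at 24.3 CPM with PKP2 and 34.3 CPM with vector, a ratio of 0.709 (0.624 to 0.806). E2F2, an activating family member, was at 18.1 CPM with PKP2 and 23.4 CPM with vector, a ratio of 0.772 (0.663 to 0.899). RB1, the retinoblastoma repressor of E2F, was at 53.8 CPM with PKP2 and 70.3 CPM with vector, a ratio of 0.766 (0.702 to 0.836). With the trend subtracted they lay at -0.36, -0.35 and -0.26. The 24 mitosis genes had 2 called lower (8.33%), a median of -0.05 and a summed ratio of 0.941 (0.931 to 0.951). Without MKI67, left out after its value was seen, that ratio was 0.977 (0.965 to 0.988). An interval lay above 1 for 5 mitosis genes (20.8%, against 16.3% of all expressed genes) and below 1 for 7 (29.2%, against 19.8%). The genes farthest from 0 were ASPM at 0.730 (0.678 to 0.785), MKI67 at 0.759 (0.738 to 0.781) and ANLN at 0.853 (0.816 to 0.892). After the subtraction that median was -0.02, and no mitosis gene was 1.2-fold lower.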

How the data were processed

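RNA sequencing of total RNA from A549 cells gave 1 library for PKP2 and 1 for vector, made with an Illumina TruSeq kit, per the labels' protocols. The authors deposited estimated counts per gene by Entrez ID, and the header calls them counts. Per the submitters' processing notes, the build was GRCh38.p12 and the named tools were RSEM 1.2.12, HISAT2 2.0.4 and Bowtie2. The sources do not say which of them made the counts, nor the annotation, filters or strand setting. Of 16399 genes, 2491 with PKP2 and 2403 with vector had a fractional value, as reads divided between similar genes give, and 6 of the 45 members did in at least 1 library. Exons of 19 members overlap those of another GENCODE gene, 15 on the opposite strand, and are uncertain to that extent.

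CPM was computed from the library totals. Genes reaching 1 CPM in either library were taken as expressed, all 45 members among them. The difference was log2(CPM + 1), which understates low genes. Ratios are plain CPM ratios, with exact 95% Clopper-Pearson intervals from counts rounded to whole numbers, covering counting error only. Symbols came from a RefSeq table (GRCh38.p14) by Entrez ID, matching 16183 of 16399. Length and GC content are those of the longest GENCODE release 29 transcript, found for 98.8% of expressed genes, and an additive lowess trend on both had a span of 0.3. Of 49 promoter windows, 44 ended in 40 bases found in a transcript of their gene and 0 in the reverse complement, so they read along the gene. Calculations used Python 3.11.15, NumPy 2.4.6, SciPy 1.17.1 and statsmodels 0.14.6, and were tested on simulated data.

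The members, the lists, the 1.2-fold measure and the trend were chosen with earlier results of these data known. Named genes are all members, PKP2 and, from each other functional list, the 3 with the largest difference at a mean of 5 CPM or more. GMNN, CDC7, DBF4, DBF4B, POLE3, POLE4 and TOP2A fall outside this rule and were added with their values known. Marker genes with no row in the files were not analysed here.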

Additional observations from a re-analysis of the deposited data

How the results depend on the processing

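No paired analysis was possible because each group held 1 library, and for the same reason no replicate could be left out. The median difference of the members was 0.00 and their summed ratio 0.988. Under pseudocounts of 0.1 and 5, no expression filter, a mean of 5 CPM or more, both rescalings of the libraries and removal of genes with fractional counts, the median lay between 0.00 and 0.01, and no count of members apart or clear of 1 moved by over 1.5 times. With the length and GC trend subtracted the median was -0.027 and the number of members 1.2-fold lower was 0 instead of 1. The number with an interval above 1 was 5 instead of 8 under that trend, and with one below 1 it was 8 instead of 11. That fit estimates 1 trend from all expressed genes. At 1.5-fold and 2-fold thresholds 0 members were higher and 0 lower. Of 45 single differences, 6 moved beyond their counting error under the trend and none did under the other alternatives. Under the trend 16 of the 45 changed sign, neither ORC6 nor RFC1 among them. Of the 10 group medians, 5 moved under the trend and 1 without fractional genes. Rescaling shifted all log ratios by under 0.01, so directions rest little on it. Depth left an interval of 0.708 to 1.01 for CCNE2, the least covered member. It says nothing on the spread between cultures, which 1 library per group leaves unmeasured.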
